A study of Mus musculus with 12 samples.

Results

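The genes of the T cell receptor were measured in 12 libraries from mouse tumours of 4T1. This is an established mammary carcinoma line, grown here in the mammary gland. All rows of the abundance table whose symbol names a V segment or a constant region of the alpha, beta, gamma or delta chain were taken, which gave 92 of 23667 symbols. They comprised 55 alpha, 18 beta, 7 gamma and 4 delta V segments, and the constant regions Trac, Trbc1, Trbc2, Trdc and Trgc1 to Trgc4. Tumours came from control cells (CTRL) or from cells in which Trex1, which encodes a DNA exonuclease of the cytosol, had been targeted with CRISPR-Cas9 (TREX1 KO). Each genotype was treated for 1 week with checkpoint antibodies (ICB), 200 µg of anti-PD1 and 100 µg of anti-CTLA4 given 3 times a week, or with matched isotype antibodies (IgG). Each of the 4 groups, CTRL-IgG, CTRL-ICB, TREX1 KO-IgG and TREX1 KO-ICB, had 3 libraries of polyadenylated RNA, numbered as replicates 1 to 3. The edit was carried by the injected tumour cells, so the labels place no edit in the host T cells. The sources used here do not say whether the edited cells were 1 clone, and do not give the strain or age of the mice.

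Each T cell joins 1 of many V segments to a J segment, and in beta and delta chains a D segment, so that every clone carries its own receptor. The joined exon is spliced to a constant region, and the constant region is therefore read from every receptor transcript of that chain. Alpha-beta T cells recognise peptides on MHC molecules and include the CD4 and CD8 cells on which checkpoint antibodies act. Gamma-delta T cells are fewer in lymph nodes and blood and more common in epithelia, and many tumours hold some. Natural killer cells, which lack a rearranged receptor, are known to transcribe gamma and delta constant regions from unrearranged loci.

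Values are TPM, transcript abundance normalized for transcript length and for the library total, and the sequencing depth is unknown. TREX1 KO-IgG replicates 2 and 3 and TREX1 KO-ICB replicates 1 and 2 were far closer to each other than other tumours of a group were. Over the 303 genes above 300 TPM in all libraries, the robust SD of their log2 ratio was 0.0557 and 0.0339 for these pairs. It was 0.217 to 0.576 for 10 further pairs of replicates. Without counts, sampling noise cannot be computed for these differences, and each pair was averaged and counted as 1 sample, which left 6 CTRL and 4 TREX1 KO samples. TREX1 KO-IgG replicate 1 stood apart, with Epcam, an epithelial adhesion gene of the tumour cells, at 0.661 TPM against 87.1 to 1239 in the other libraries. CTRL-IgG replicate 3 and CTRL-ICB replicate 3 carried the skin keratin Krt5 at 328 and 770 TPM. Trex1 itself was 32.8 to 46.2 TPM in CTRL and 56.0 to 72.2 TPM in TREX1 KO libraries. The labels do not give the edited exon, so this level does not check the deletion, and groups are named as labelled.

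The constant regions are near copies of each other, and the bases that separate them decide how reads were shared between them. The first 150 bases of exon 1 of the 3 most abundant gamma constant regions are shown from the reference transcripts of GRCm38. Capitals mark bases that differ from Trgc1. Trgc1 and Trgc4 lie on the plus strand and Trgc2 on the minus strand of chromosome 13, at chr13:19214103-19214252, chr13:19344558-19344707 and chr13:19307402-19307551.
Trgc1: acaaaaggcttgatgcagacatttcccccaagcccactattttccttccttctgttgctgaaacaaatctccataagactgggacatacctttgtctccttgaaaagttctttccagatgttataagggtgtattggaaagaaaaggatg
Trgc2: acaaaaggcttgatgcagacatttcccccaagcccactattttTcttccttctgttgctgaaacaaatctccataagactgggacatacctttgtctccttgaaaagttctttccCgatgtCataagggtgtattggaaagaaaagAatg
Trgc4: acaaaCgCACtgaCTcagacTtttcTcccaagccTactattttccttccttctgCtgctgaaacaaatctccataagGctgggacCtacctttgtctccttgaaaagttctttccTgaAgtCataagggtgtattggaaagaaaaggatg
Over the whole exon of 330 bases, Trgc1 and Trgc2 were 97.3% identical, and Trgc4 was 82.1% identical to Trgc1 and 81.5% to Trgc2. Reads of Trgc4 are therefore easier to assign than reads that fall in Trgc1 or Trgc2.

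The beta constant regions Trbc1 (chr6:41538218-41539881) and Trbc2 (chr6:41546730-41548352) differ less. Their coding parts of 518 bases differed at 23 bases, and exon 1, which codes for the outer domain, held only 1 of them. Exon 3, around the membrane-spanning stretch, held 15, and is shown because it carries most of the coding differences. The untranslated ends, of 219 and 174 bases, were not compared. Capitals mark bases that differ from Trbc1, at chr6:41539229-41539335 for Trbc1 and chr6:41547772-41547878 for Trbc2, both on the plus strand.
Trbc1 exon 3: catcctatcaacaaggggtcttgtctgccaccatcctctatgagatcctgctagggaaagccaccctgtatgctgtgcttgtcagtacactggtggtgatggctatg
Trbc2 exon 3: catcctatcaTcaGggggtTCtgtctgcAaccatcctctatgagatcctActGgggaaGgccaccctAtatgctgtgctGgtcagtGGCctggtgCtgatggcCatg

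V segments showed the same problem in its full form. In 10 pairs of alpha V segments (20 segments) the annotated transcripts were identical, and both members of each pair had equal values in every library. Trav6-6 (chr14:53517069-53517366) and Trav6d-6 (chr14:52822062-52822359) are such a pair on the plus strand, and their shared V exon is printed once. Trbv1 (chr6:40891591-40891885, plus strand) is printed beside it because it had the largest value of any V segment in the series. Capitals run from the conserved cysteine codon to the end of the germline segment, where the hypervariable join begins.
Trav6-6: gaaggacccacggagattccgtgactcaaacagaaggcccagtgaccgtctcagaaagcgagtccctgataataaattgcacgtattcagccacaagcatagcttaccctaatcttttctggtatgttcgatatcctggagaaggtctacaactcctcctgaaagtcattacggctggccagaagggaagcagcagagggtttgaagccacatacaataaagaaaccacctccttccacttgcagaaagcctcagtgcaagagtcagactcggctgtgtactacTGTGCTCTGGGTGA
Trbv1: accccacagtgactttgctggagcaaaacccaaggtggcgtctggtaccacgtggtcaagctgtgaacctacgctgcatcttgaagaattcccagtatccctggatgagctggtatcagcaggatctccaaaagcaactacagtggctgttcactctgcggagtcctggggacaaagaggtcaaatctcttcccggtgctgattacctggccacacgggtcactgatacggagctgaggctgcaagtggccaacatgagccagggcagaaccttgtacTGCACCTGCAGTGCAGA
The values of such alpha copies cannot be told apart, so each pair is a single measurement.

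Alpha-beta constant regions were the most abundant members. Trac, the sole alpha constant region (chr14:54220521-54224206), was 9.04, 11.1 and 12.9 TPM in CTRL-IgG replicates 1 to 3 and 13.8, 17.1 and 7.96 TPM in CTRL-ICB. It was 34.6, 11.6 and 15.5 TPM in TREX1 KO-IgG and 13.2, 16.1 and 17.8 TPM in TREX1 KO-ICB. Apart from TREX1 KO-IgG replicate 1, all libraries lay in 1 band, and the genotypes overlapped. By limma, fitted across all 13886 genes that passed the filter on low values, Trac differed by 0.65 ± 0.29 (SE) on the log2(TPM + 1) scale between TREX1 KO and CTRL averaged over both treatments, with an adjusted p of 0.435. Without TREX1 KO-IgG replicate 1 the difference was 0.32.

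Trbc1 and Trbc2 are used interchangeably by beta chains, each with its own cluster of J segments. Trbc1 was 18.5, 24.9 and 22.1 TPM in CTRL-IgG and 11.6, 9.05 and 12.7 TPM in CTRL-ICB. In TREX1 KO-IgG it was 54.2, 13.6 and 14.7 TPM, and in TREX1 KO-ICB 22.6, 26.9 and 29.0 TPM. CTRL-ICB was thus below CTRL-IgG in all 3 tumours, and TREX1 KO-ICB above both averaged libraries of TREX1 KO-IgG. Trbc2 was 16.3, 18.5 and 21.5 TPM in CTRL-IgG and 15.7, 22.4 and 13.6 TPM in CTRL-ICB. It was 82.5, 28.3 and 28.2 TPM in TREX1 KO-IgG and 22.1, 23.2 and 25.6 TPM in TREX1 KO-ICB. All 4 TREX1 KO samples lay above all 6 CTRL samples for Trbc2, but over the 12 libraries CTRL-ICB replicate 2 exceeded TREX1 KO-ICB replicate 1. By limma, the genotype difference was 0.91 ± 0.28 for Trbc2 (adjusted p = 0.255) and 0.78 ± 0.32 for Trbc1 (adjusted p = 0.38), and neither passed 0.05. Without TREX1 KO-IgG replicate 1, they were 0.53 and 0.32.

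Summed over Trac, Trbc1 and Trbc2, the alpha-beta level was 51.6 ± 6.83 TPM (SD, n = 3) in CTRL-IgG and 41.3 ± 7.19 TPM (n = 3) in CTRL-ICB. In TREX1 KO-IgG it was 171 TPM in replicate 1 and 53.5 and 58.4 TPM in replicates 2 and 3, and in TREX1 KO-ICB 58.0, 66.3 and 72.3 TPM. CTRL libraries reached 56.5 TPM, so the genotypes overlapped through 2 CTRL-IgG libraries and 1 TREX1 KO-IgG library. In the order of group means, TREX1 KO-IgG came before TREX1 KO-ICB, CTRL-IgG and CTRL-ICB, and each neighbour except TREX1 KO-ICB and CTRL-IgG overlapped with the next. Without replicate 1, TREX1 KO-IgG was at 56.0 TPM, below TREX1 KO-ICB at 67.2 TPM. On the log2 scale the mean difference between genotypes was 0.81 against a pooled SD of 0.50 within groups, and 0.41 without TREX1 KO-IgG replicate 1. Between ICB and IgG it was -0.43, with -0.03 when TREX1 KO-IgG replicate 1 was left out and -0.83 without replicates 2 and 3. Fewer T cells and less receptor RNA per cell cannot be told apart in RNA from whole tumours.

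**Figure D1:**
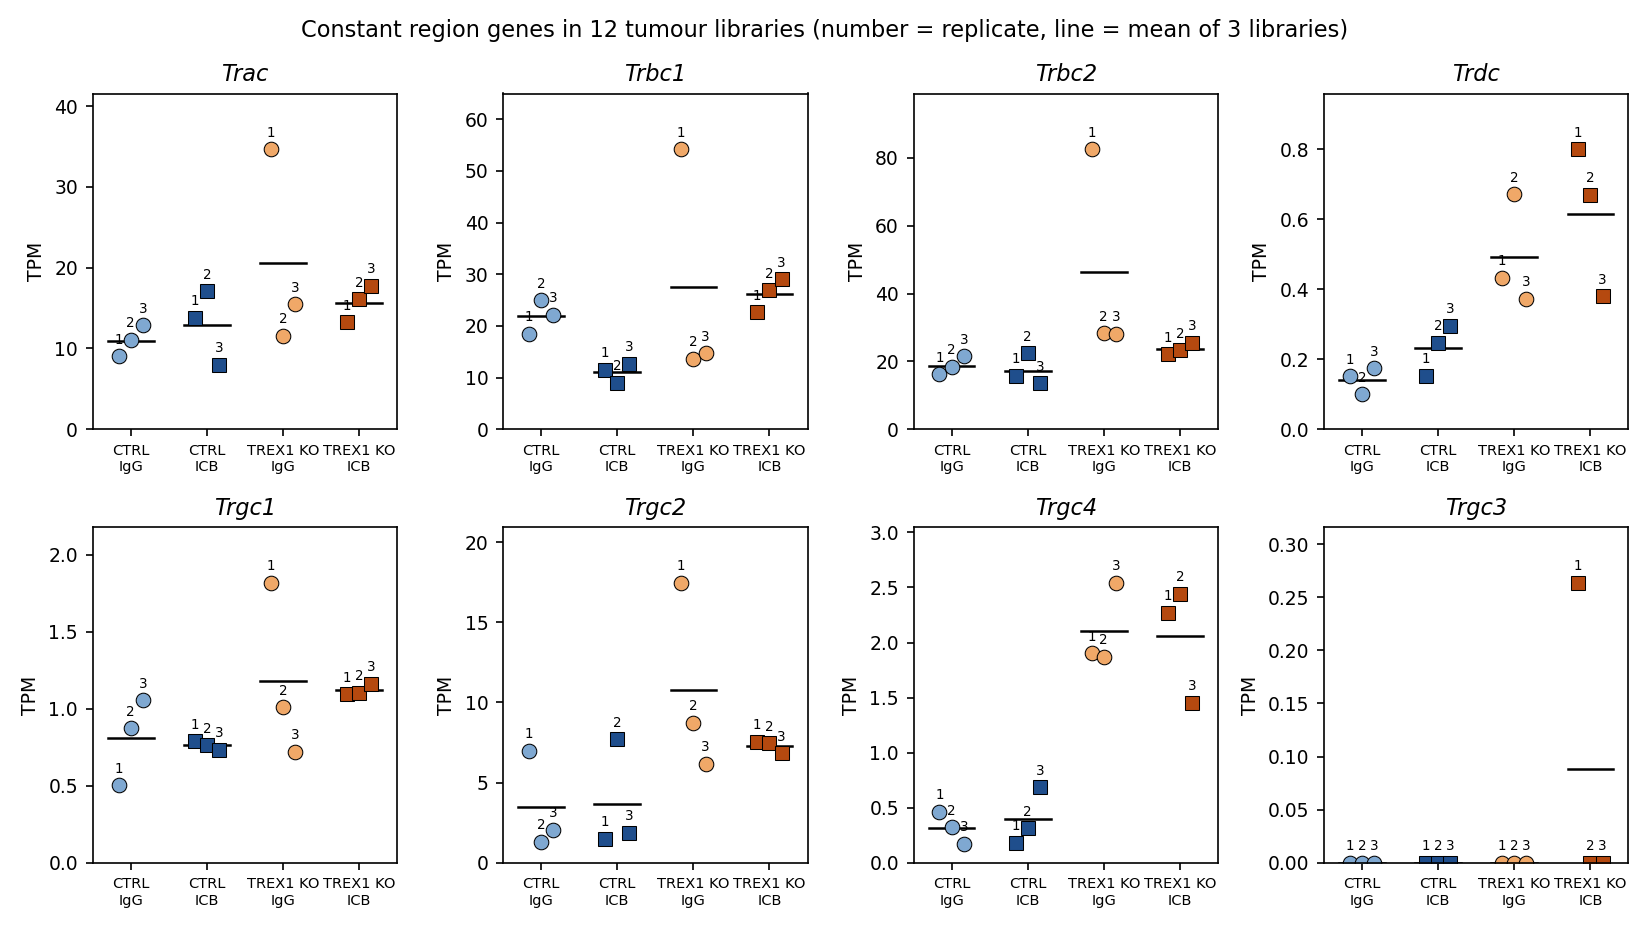
TPM of each T cell receptor constant region gene in the 12 libraries, by group. Each point is a library with its replicate number, the line is the mean of the 3 libraries, and each axis starts at 0 on its own scale. Trgc4 was 0.172 to 0.685 TPM in CTRL and 1.45 to 2.54 TPM in TREX1 KO libraries, and Trbc2 reached 82.5 TPM in TREX1 KO-IgG replicate 1.

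The gamma constant regions were lower, and Trgc4 did not overlap between genotypes. Trgc4 (chr13:19344558-19352756), which lies beside Trgv1, was 0.465, 0.322 and 0.172 TPM in CTRL-IgG and 0.183, 0.312 and 0.685 TPM in CTRL-ICB. It was 1.90, 1.87 and 2.54 TPM in TREX1 KO-IgG and 2.27, 2.44 and 1.45 TPM in TREX1 KO-ICB. Every TREX1 KO library was above every CTRL library, and treatment groups of 1 genotype overlapped. By limma, the genotype difference was 1.14 ± 0.22 on the log2(TPM + 1) scale, with an adjusted p of 0.106 over 10 samples. Over the 12 libraries it was 1.18 ± 0.18 with an adjusted p of 0.00986, and without TREX1 KO-IgG replicate 1 the adjusted p was 0.0497. Of all genes tested, 3.23% and 1.97% passed in these fits. The call for Trgc4 thus depended on how libraries were counted, while its direction was the same in each of these fits. Trgc4 reached 1 TPM only in TREX1 KO libraries and so met the filter through them alone. Its tests therefore lend no support to a genotype difference. Adjusted p-values of Trgc4 ranged from 0.00986 to 0.467 over all alternatives.

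Trgc2 (chr13:19304649-19307551) was the most abundant gamma constant region in every library. It was 7.0, 1.32 and 2.05 TPM in CTRL-IgG and 1.5, 7.72 and 1.86 TPM in CTRL-ICB. In TREX1 KO-IgG it was 17.4, 8.75 and 6.16 TPM, and in TREX1 KO-ICB 7.53, 7.46 and 6.84 TPM. CTRL-IgG replicate 1 and CTRL-ICB replicate 2 lay within the range of TREX1 KO, and the other 4 CTRL libraries far below it. The genotype difference of 1.37 ± 0.46 did not pass the limma test (adjusted p = 0.297). Trgc1 (chr13:19214103-19217024) was 0.504 to 1.06 TPM in CTRL and 0.722 to 1.82 TPM in TREX1 KO libraries, with overlap and a difference of 0.31 ± 0.21 (adjusted p = 0.624). Trgc3 was listed at 0.264 TPM in TREX1 KO-ICB replicate 1 and at 0 in the other 11 libraries.

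Trdc (chr14:54142851-54148868), the delta constant region inside the alpha locus, was below 1 TPM throughout and did not pass the filter, so it was not tested. It was 0.151, 0.101 and 0.175 TPM in CTRL-IgG, and 0.153, 0.247 and 0.296 TPM in CTRL-ICB. It was 0.433, 0.672 and 0.374 TPM in TREX1 KO-IgG and 0.800, 0.671 and 0.380 TPM in TREX1 KO-ICB. All TREX1 KO libraries were above all CTRL libraries. Trbc2, Trgc4 and Trdc were the only members of the 92 whose 4 TREX1 KO samples all exceeded the 6 CTRL samples, and none had all below. Among tested genes 2.05% had all TREX1 KO samples above all CTRL samples and 1.52% all below, and without the filter 1.53% of the table had all above.

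The gamma-delta level, summed over Trdc and the 4 gamma constant regions, was 4.73 ± 2.97 TPM (SD, n = 3) in CTRL-IgG and 5.08 ± 3.46 TPM (n = 3) in CTRL-ICB. It was 21.6, 12.3 and 9.80 TPM in TREX1 KO-IgG and 12, 11.7 and 9.84 TPM in TREX1 KO-ICB. The lowest TREX1 KO library was just above the highest CTRL library at 9.04 TPM. The mean difference between genotypes was 1.37 on the log2 scale against a pooled SD of 0.66, and it was 1.14 without TREX1 KO-IgG replicate 1. Genes of natural killer cells were measured beside it. Ncr1, an activating receptor of those cells, was 0.821 to 2.74 TPM in CTRL and 4.39 to 10.2 TPM in TREX1 KO libraries. All 5 of the natural killer genes in the table were tested and had positive differences, none passed 0.05, and 2 of 5 (Ncr1 and Eomes) did not overlap between genotypes over the 10 samples, of which Eomes overlapped over the 12 libraries. Their sum ranged from 10.3 to 55.05 TPM in CTRL and 53.1 to 104 TPM in TREX1 KO libraries. Neutrophil genes had negative differences, with a median difference of -2.59 over 3 genes, 1 of which (S100a8) passed 0.05 and 2 of which were below all CTRL samples, and a sum of 166 to 870 TPM in CTRL and 27.1 to 110 TPM in TREX1 KO libraries. The summed macrophage genes were 123 to 239 TPM in CTRL and highest in TREX1 KO-IgG replicate 1, at 424 TPM. The part of these cells in the receptor values was not tested. Genes of interleukin 17 type gamma-delta T cells gave no such separation, with 2 of 4 tested genes positive, 5 of 10 below 1 TPM in every library and Il17a at 0 in 11 libraries.

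The ratio of alpha-beta to gamma-delta constant regions was 5.39, 20.8 and 16.4 in CTRL-IgG and 15.6, 5.38 and 9.57 in CTRL-ICB. It was 7.93, 4.35 and 5.96 in TREX1 KO-IgG and 4.85, 5.68 and 7.35 in TREX1 KO-ICB. TREX1 KO libraries kept to the low end, and CTRL libraries fell within or above their range. CTRL-IgG replicate 1 and CTRL-ICB replicate 2, which had the high Trgc2 values, were the CTRL libraries within the TREX1 KO range. On the log2 scale the genotype difference was -0.56, smaller than the pooled SD of 0.67. Taking V segments instead of constant regions, the difference was 0.35, so the direction of the ratio was not the same by the other readout.

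**Figure D2:**
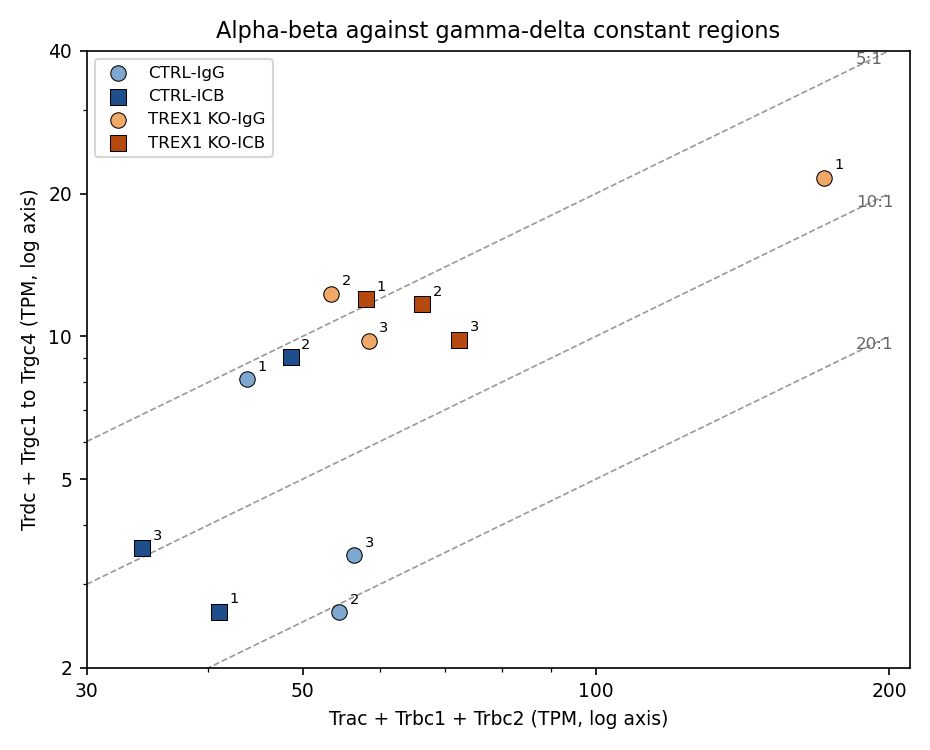
Summed TPM of alpha-beta constant regions (horizontal, log axis) against gamma-delta constant regions (vertical, log axis), with 1 point per library and its replicate number, and dashed lines for fixed ratios. TREX1 KO libraries lie at ratios of 4.35 to 7.93, CTRL libraries at 5.38 to 20.8, and TREX1 KO-IgG replicate 1 is far to the right at 171 TPM.

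The balance of Trbc1 and Trbc2 crossed between treatments. The ratio of Trbc1 to Trbc2 was 1.14, 1.35 and 1.03 in CTRL-IgG and 0.735, 0.404 and 0.930 in CTRL-ICB. It was 0.657, 0.481 and 0.521 in TREX1 KO-IgG and 1.02, 1.16 and 1.14 in TREX1 KO-ICB. Under ICB every CTRL tumour was below every CTRL-IgG tumour, and every TREX1 KO library was above every TREX1 KO-IgG library. With the close pairs of libraries averaged, each TREX1 KO group held 2 samples. The crossing itself was not tested, and in limma the interaction was 0.87 ± 0.63 for Trbc1 and -0.84 ± 0.56 for Trbc2, each with an adjusted p of 0.999. With 1 differing base in exon 1, part of each library's reads cannot have told the pair apart, and how many did is unknown from TPM.

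**Figure D3:**
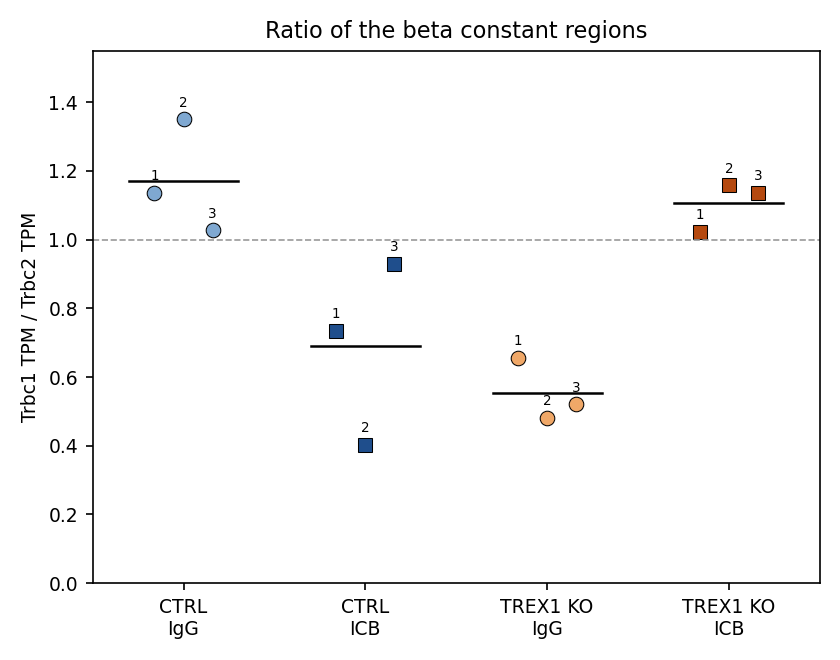
Ratio of Trbc1 to Trbc2 TPM by group. Each point is a library with its replicate number, lines are means of the 3 libraries, and the dashed line marks equal levels. CTRL-IgG and TREX1 KO-ICB libraries are above 1 (1.02 to 1.35) and the other 6 libraries below it (0.404 to 0.930).

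In limma 0 of the 30 members tested passed 0.05 in any of the 7 comparisons. Averaged over treatments, 0.108% of all genes tested passed (15 of 13886), so a list of this length would be near 0 as well. The 30 tested were 24 V segments and the constant regions other than Trdc and Trgc3. Their median genotype difference was 0.68, against -0.03 over all genes tested, and 27 of 30 were positive, against 46.2% of all genes. At an unadjusted p under 0.05 there were 9, all higher in TREX1 KO, against 11.5% of all genes. Without TREX1 KO-IgG replicate 1 the median was 0.34, against -0.09 over all genes, 25 of 30 were positive, and 4 members were at an unadjusted p under 0.05, against 18.8% of all genes. The filter kept sparse V segments and Trgc4 through the libraries in which they were high. These figures therefore describe the members that passed and not all 92. In T cells at large, 16 of 18 signalling genes such as Cd3e, Lck and Zap70 were tested, 0 passed, 16 were positive and the median was 0.89, or 0.55, with 1 past 0.05, without TREX1 KO-IgG replicate 1. Of the 18, 9 had all TREX1 KO samples above all CTRL samples and 0 had all below. The share with all above was 2.05% of genes tested and 1.53% of the whole table. Summed TPM of Cd3d, Cd3e and Cd3g was 15.4 to 28.1 in CTRL and 37.1 to 98.4 in TREX1 KO libraries, without overlap. They encode chains of the CD3 complex, which carries both kinds of receptor to the surface.

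Between treatments the members differed in both directions. Averaged over genotypes, the median difference between ICB and IgG was -0.10 over the 30 members and -0.02 over all genes tested, and 11 of 30 were positive. Without TREX1 KO-IgG replicate 1 the median over the members turned to 0.13, with 17 of 30 positive, and over all genes to 0.04. No gene of the 13886 passed for ICB against IgG, averaged or within a genotype, with 441 genes and 2 members at an unadjusted p under 0.05 in the averaged comparison. Those members were Trav5-1, at -1.26 ± 0.51, and Trgv7, at 0.80 ± 0.32, each with an adjusted p of 0.994. For TREX1 KO against CTRL 0 genes passed under IgG and 1 gene (0.0072%) under ICB, and it was not a member. Outside these fits, members passed when samples were left out or the filter was dropped. Trbc2 and Trbv30 passed under IgG (0.317% of genes), Trbv30 in the average (0.115%) and Trbc2 for ICB against IgG in TREX1 KO (1.59%), each without TREX1 KO-IgG replicates 2 and 3. With no filter Trav13-5, listed at 0 outside TREX1 KO-ICB, passed under ICB (0.0211% of genes) and for ICB against IgG in TREX1 KO (0.0549%). It entered only through the group in which it was high, so these calls lend no support to a difference.

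V segments were sparsely covered. Of 1008 values (84 segments in 12 libraries), 712 (70.6%) were below 0.1 TPM, the level used here as detected. The 296 detected values had a median of 1.08 TPM, and 139 of them were below 1 TPM. Every symbol of the abundance table was nonzero in some library, so segments without any signal were already absent from it. All counts and shares of segments are therefore out of those with some signal. There were 33 segments detected in 1 library, 2 (Trav11 and Trav7d-2) in none, and 1 (Trgv2) in all 12. Beta segments were met again more often than alpha segments, since 14 of 18 beta but 2 of 55 alpha segments were detected in 6 libraries or more. With identical copies merged, 74 segments remained, 26 of them detected in 1 library. A segment at this level probably rests on few reads, and its absence from a library means only that it was not detectable at an unknown depth.

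The number of V segments detected was 15, 20 and 21 in CTRL-IgG and 20, 29 and 18 in CTRL-ICB. It was 41, 23 and 20 in TREX1 KO-IgG and 29, 33 and 27 in TREX1 KO-ICB. TREX1 KO-ICB was above CTRL-IgG in all libraries, whereas TREX1 KO-IgG and CTRL-ICB overlapped with the others. The difference between genotypes was 9.62 segments against a pooled SD of 6.92, and 4.75 without TREX1 KO-IgG replicate 1, the library with the highest alpha-beta level. With identical copies merged it was 8.88 segments. Beta segments alone numbered 7 to 11 of 18 in CTRL and 9 to 16 in TREX1 KO libraries. Alpha segments numbered 6 or 7 of 55 in 5 CTRL libraries and 15 in CTRL-ICB replicate 2, against 4 to 19 in TREX1 KO. Of the 45 alpha segments that remained after merging identical copies, 18 were detected in TREX1 KO libraries only and 9 in CTRL only, and 5 of the former in TREX1 KO-IgG replicate 1 alone. More receptor RNA in a library lets more segments be seen, and the part of the receptor level in these counts was not tested.

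Evenness was given as the effective number of segments, the exponential of the Shannon entropy of their shares, which equals the number of segments when all are equally abundant. For beta segments it was 5.58, 7.15 and 8.59 in CTRL-IgG, 8.56, 5.17 and 5.81 in CTRL-ICB, 7.87, 6.67 and 6.49 in TREX1 KO-IgG and 8.24, 11.6 and 9.02 in TREX1 KO-ICB. Only replicates 2 and 3 of TREX1 KO-ICB were above the highest CTRL library. For alpha segments the range was 3.25 to 11.4 in CTRL and 3.23 to 13.6 in TREX1 KO libraries, with full overlap. On a scale from 0 to 1, entropy over the log of the number of segments in the table, the genotype difference was 0.07 for beta (pooled SD 0.0709) and 0.05 for alpha (pooled SD 0.116). The beta difference was about equal to the spread within groups and the alpha difference was smaller. Both turned when entropy was divided by the log of the segments detected in a library, to -0.037 for beta and -0.067 for alpha, and alpha was -0.012 without TREX1 KO-IgG replicate 1.

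**Figure D4:**
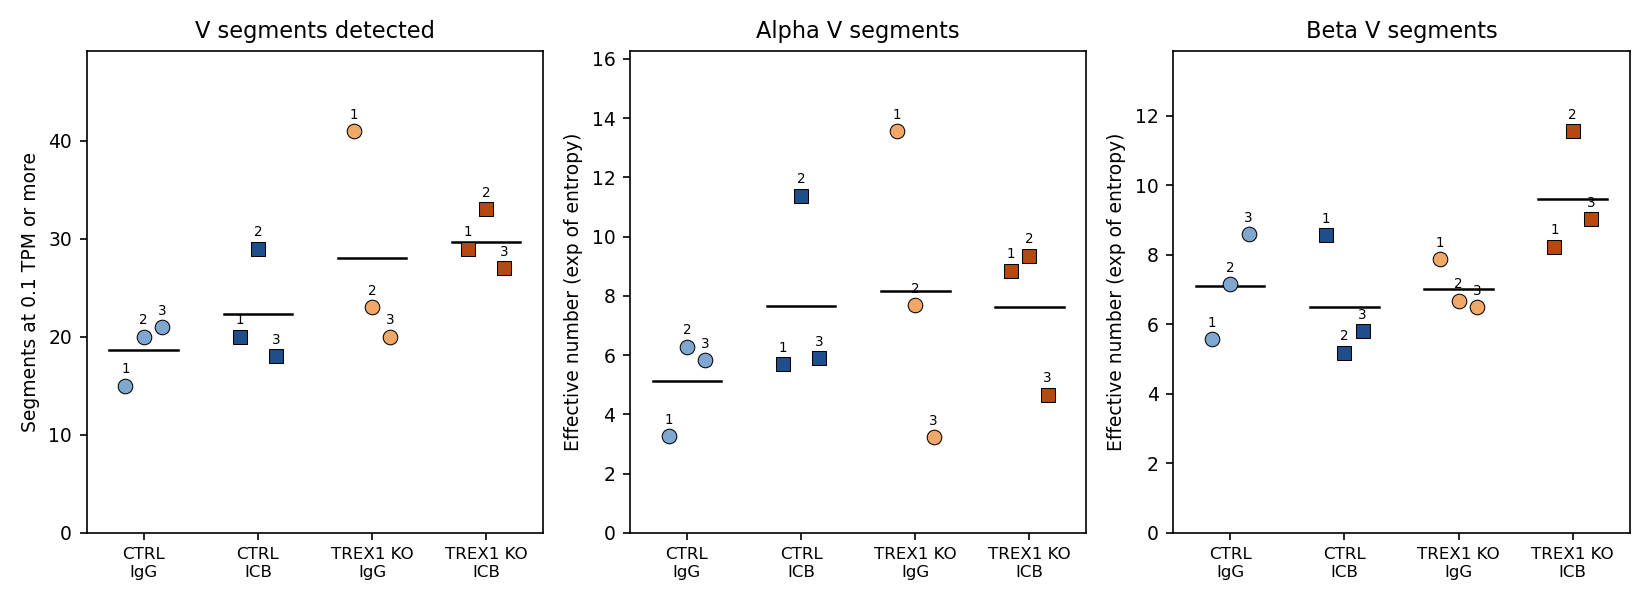
Number of V segments at 0.1 TPM or more (left) and effective number of alpha (middle) and beta (right) V segments, by group. Each point is a library with its replicate number and lines are means of the 3 libraries. TREX1 KO-IgG replicate 1 has the most segments, 41, and CTRL-IgG replicate 1 the fewest, 15.

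The most abundant beta segment differed from tumour to tumour. In CTRL-IgG replicates 1 to 3 it was Trbv14, Trbv13-2 and Trbv5, and in CTRL-ICB Trbv1, Trbv14 and Trbv13-1. In TREX1 KO-IgG it was Trbv1 and then Trbv29 in both averaged libraries, and in TREX1 KO-ICB Trbv17 and then Trbv13-3 in replicates 2 and 3. The leading segment held 19.0% to 50.1% of summed beta V TPM in CTRL and 24.1% to 37.9% in TREX1 KO libraries. Trbv1, printed above, was 47.5 TPM in TREX1 KO-IgG replicate 1, 5.82 TPM in replicate 1 of CTRL-ICB and no higher than 2.69 TPM in other libraries. Trbv14 was 15.7 TPM in CTRL-ICB replicate 2, where it made up the largest share of any library, and 17.1 TPM in TREX1 KO-IgG replicate 1. It was listed at 0 in 5 libraries.

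**Figure D5:**
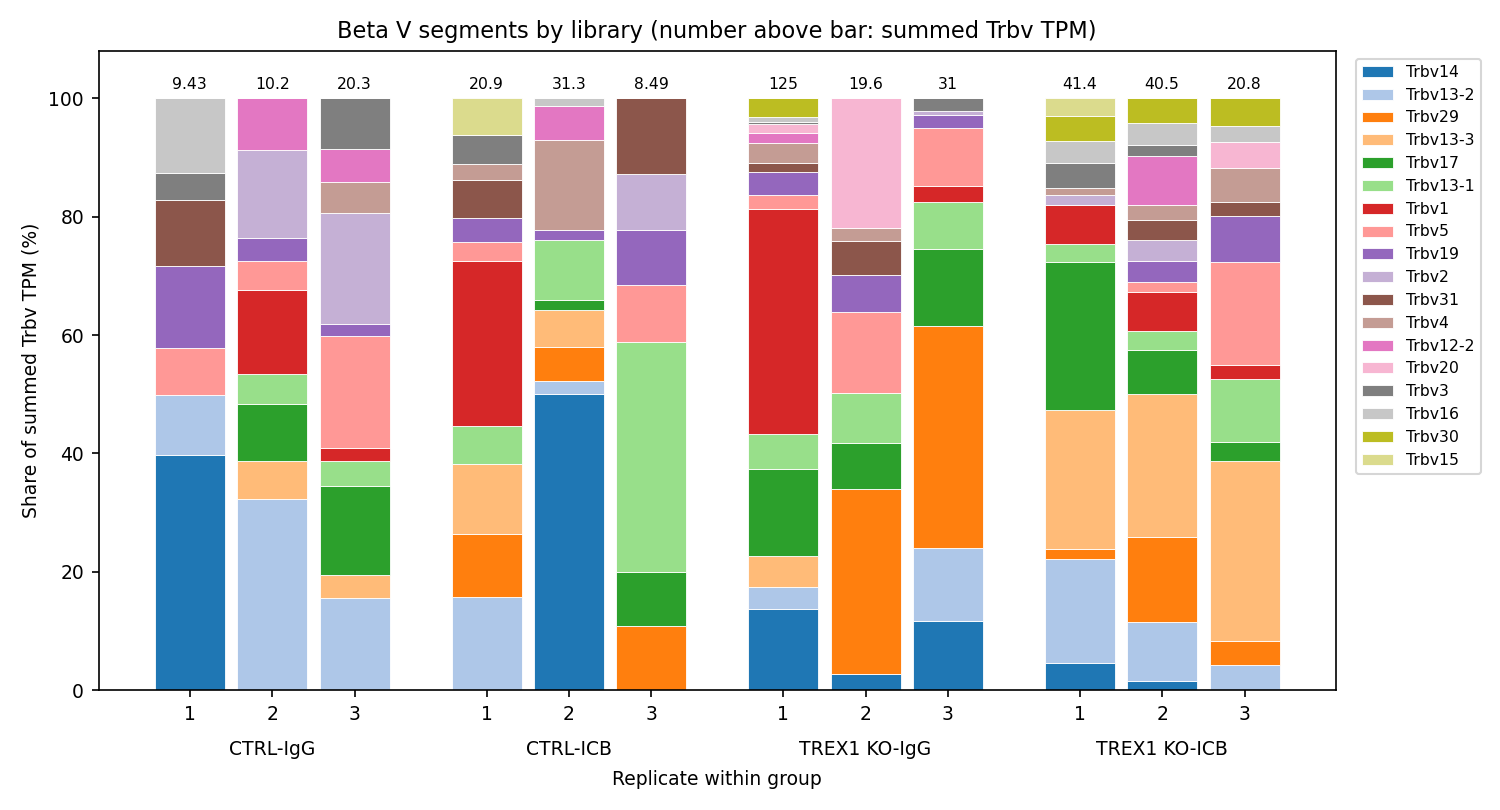
Share of each of the 18 beta V segments in the summed Trbv TPM of a library, 1 bar per library, with the summed TPM above the bar. Trbv14 fills 50.1% of CTRL-ICB replicate 2 and Trbv1 37.9% of TREX1 KO-IgG replicate 1, and the leading segment changes between tumours of 1 group.

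Other beta segments were more widely shared. Trbv13-1 and Trbv19 were detected in 11 libraries, and Trbv17, Trbv13-2 and Trbv5 in 10. Trbv13-3 was 9.70, 9.73 and 6.32 TPM in TREX1 KO-ICB, 6.55 TPM in TREX1 KO-IgG replicate 1 and at most 2.47 TPM in CTRL, with a genotype difference of 1.48 ± 0.56 in limma (adjusted p = 0.358) that fell to 0.75 without TREX1 KO-IgG replicate 1. Trbv29 was 6.09 and 11.6 TPM in the averaged TREX1 KO-IgG libraries and 5.79 TPM in TREX1 KO-ICB replicate 2, and at 0 in TREX1 KO-IgG replicate 1. Its difference of 0.88 ± 0.56 (adjusted p = 0.595) became 1.70 with an adjusted p of 0.0418 when TREX1 KO-IgG replicate 1 was left out, and 0.053 without replicates 2 and 3. Trbv30 was 3.92 TPM in TREX1 KO-IgG replicate 1 and 1.73, 1.70 and 0.960 TPM in TREX1 KO-ICB, and was listed at 0 in the 6 CTRL and 2 other libraries. Trbv30 met the filter only through TREX1 KO libraries, and Trbv13-3, Trbv29 and Trbv17 would not have met it on CTRL libraries alone. The tests of these segments therefore lend no support to a genotype difference. Trbv17 gave a difference of 1.74 ± 0.60 (adjusted p = 0.311), or 1.15 without TREX1 KO-IgG replicate 1.

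Segments that retroviral superantigens delete in mice with MHC class II I-E, such as BALB/c, the strain of origin of 4T1 cells, were detected. Trbv12-2 was detected in 5 libraries at up to 3.36 TPM, Trbv16 in 6 at up to 1.53 TPM and Trbv15 in 2 at up to 1.28 TPM. Among segments not subject to that deletion, Trbv13-1 reached 7.54 TPM, Trbv13-2 7.28 TPM and Trbv19 4.84 TPM. Trbv2 and Trbv31 reached 3.80 and 1.97 TPM, and their means over 12 libraries, both 0.705 TPM, were below that of Trbv12-2, 0.762 TPM. Trbv26 and Trbv12-1, which are deleted in the same way, had no row in the abundance table and so no value.

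Alpha segments rarely recurred. The leading alpha segment was Trav6d-4 in CTRL-IgG replicate 1, at 7.63 TPM or 60.4% of summed alpha V TPM, and was detected in no other library. Trav5-1 led in CTRL-ICB replicate 2 at 3.25 TPM and in TREX1 KO-IgG replicates 2 and 3 at 4.66 and 5.97 TPM, was 2.77 and 4.57 TPM in CTRL-IgG replicate 1 and TREX1 KO-IgG replicate 1, and was at 0 in all 3 TREX1 KO-ICB libraries. Trav3-1, at 7.10 TPM, led in TREX1 KO-IgG replicate 1. Trav3-3, detected in 8 libraries, was the most widely found, and led in TREX1 KO-ICB replicate 2 at 2.82 TPM. Trav6-2 and Trav7-3 led in the other TREX1 KO-ICB libraries at 3.21 and 3.85 TPM, and Trav7-3, Trav13-2, Trav9n-1 and Trav7-1 in the other CTRL libraries at 0.830 to 1.19 TPM.

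Segments of invariant T cells were at the edge of detection. Trav11, which with Trav11d encodes the invariant alpha chain of natural killer T cells, was below 0.1 TPM in all 12 libraries, and Trav11d was 1.51 TPM in TREX1 KO-IgG replicate 3. Trav1, used by mucosal-associated invariant T cells, was 1.03 TPM in TREX1 KO-IgG replicate 1. Both were at or near 0 in the other 11 libraries.

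Gamma and delta V segments were few. Trgv2, which lies on the minus strand next to Trgc2, was 3.51, 0.243 and 1.14 TPM in CTRL-IgG and 1.16, 4.33 and 1.80 TPM in CTRL-ICB. It was 15.2, 2.78 and 4.50 TPM in TREX1 KO-IgG and 1.78, 4.52 and 3.18 TPM in TREX1 KO-ICB. The libraries with the most Trgv2 within CTRL were CTRL-ICB replicate 2 and CTRL-IgG replicate 1, the same 2 that had the most Trgc2. The genotype difference for Trgv2 was 1.16 ± 0.46 and did not pass (adjusted p = 0.373), and it was 0.70 without TREX1 KO-IgG replicate 1. Trgv1, next to Trgc4, was detected only in TREX1 KO, at 2.12 and 1.72 TPM in TREX1 KO-IgG replicates 1 and 3 and 0.606 TPM in TREX1 KO-ICB replicate 1. Trgc4 was thus above 1 TPM in 3 TREX1 KO libraries in which Trgv1 was not detected.

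Trgv5, the segment of the dendritic epidermal T cells of mouse skin, was found in 1 library, CTRL-ICB replicate 3, at 2.05 TPM. That library had the highest Krt5, 770 TPM, and Trdv4, the delta segment those cells use, at 4.64 TPM. The other library with skin transcripts, CTRL-IgG replicate 3, had Krt5 at 328 TPM, Trgv5 at 0 and Trdv4 at 1.12 TPM. A link of these segments to skin was not tested. Trdv4 was not confined to libraries with skin transcripts, with 4.53 and 5.33 TPM in TREX1 KO-ICB replicates 1 and 2, and was detected in 11 libraries. Trdv3 was 6.71 TPM in the same CTRL-ICB library, 2.45 TPM or less in 3 others and undetected in the other 8. Trgv6 was 2.08 TPM in TREX1 KO-IgG replicate 1 only. Trgv7 was detected in 5 CTRL and 2 TREX1 KO libraries at up to 3.19 TPM. Trgv4 and Trgv3 were each detected in 1 CTRL and 4 TREX1 KO libraries, at up to 3.19 and 2.10 TPM. Trdv2-2 was detected in 3 TREX1 KO libraries at 0.481 to 0.589 TPM.

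V segment shares were compared between libraries, which at this coverage does not tell how alike their receptor sets were. Likeness was the sum over segments of the smaller of both shares, which is 1 for identical profiles. It was 0.423 for alpha and 0.616 for beta segments in the averaged TREX1 KO-IgG pair, and 0.298 and 0.665 in that of TREX1 KO-ICB. Medians over the other 10 pairs within groups were 0.133 for alpha and 0.295 for beta, and over 54 pairs between groups 0.146 and 0.368. The medians within groups were thus not above those between groups. Among all 66 pairs, the averaged pair of TREX1 KO-ICB ranked 1 for beta and 9 for alpha, and that of TREX1 KO-IgG ranked 3 and 2. Within the TREX1 KO-ICB pair, 18 segments were detected in both libraries and 26 in only 1 of them.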

How the data were processed

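The authors deposited TPM per gene symbol for 12 libraries of polyadenylated tumour RNA. The submitters' processing notes name kallisto and GRCm38, and the sources used here give no version, transcript set or strand setting. Every deposited TPM column sums to 1000000, so depth and counting error are unknown, and low V segment values have no interval. Samples were grouped by their titles. Symbols were matched to GENCODE M21 on GRCm38 for coordinates and sequences (92 of 92 matched, gamma genes through RefSeq synonyms).

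A gene was tested if 3 or more of the 12 libraries held 1 TPM or more of it, with limma 3.58.1 (R 4.3.3) on log2(TPM + 1), with trended and robust variances, 4 group means and Benjamini-Hochberg adjustment over 13886 genes, threshold 0.05. A fold change on this scale understates the change of low genes. P-values measure the spread between 10 samples, 2 pairs of libraries being averaged. The model was tested on simulated data. Sums, counts and evenness over members are given without a test, as differences of group means averaged over the other factor. Genes were named by a fixed rule: all constant regions, members past 0.05, leading V segments, gamma and delta V segments with a mean of at least 0.1 TPM, and segments of known special use. Trbv30, Trav6-6 and Trav13-5 were named after their values were seen. The members, lists and tests were chosen with earlier results of these data known. Replicate numbers were not used to pair samples (correlations of same-numbered deviations -0.364 to 0.27, 5 of 18 above 0.1). With a close pair in each TREX1 KO group, these correlations cannot settle whether the numbers mark pairs. Alternatives were other filters, pseudocounts, scalings, sample sets and detection levels.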

Additional observations from a re-analysis of the deposited data

Results flagged for a closer look

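The sum of beta J segments, short exons that the counts above do not use, was 347.8 TPM in TREX1 KO-IgG replicate 1 and exceeded the highest CTRL library, 45.9 TPM, in 4 of 6 TREX1 KO libraries. Of the 14 beta J segments, Trbj1-1 alone was 172.7 TPM in TREX1 KO-IgG replicate 1 and at most 31.1 TPM elsewhere. The 7 segments of the first J cluster summed to 280.9 TPM there and those of the second to 66.9 TPM, and the first cluster was the larger in all 12 libraries, also where Trbc2 exceeded Trbc1.

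The ratio of Trbc1 to Trbc2 moved in opposite directions with ICB in the genotypes, and equally with genotype under the 2 treatments. The change with ICB in TREX1 KO minus that in CTRL was 1.017 in the ratio, and it was not tested.

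Within the 4 TREX1 KO samples, 3 constant regions had a sample far from the others. Trbc2 was 82.5 TPM in TREX1 KO-IgG replicate 1 and 28.3 TPM in the nearest sample, and Trgc2 was 17.4 and 7.5 TPM. Trgc3 was 0.132 TPM in the averaged TREX1 KO-ICB sample and 0 in the others. There were 30 such sets of samples examined, of which chance marks about 1 in 20.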

How the results depend on the processing

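Of 329 repeats of the counts and summed values under alternatives, 318 moved by less than 1 pooled SD or kept the count, 10 moved further and 1 turned. Of 162 such repeats of summed values, 10 had the opposite sign, each of a difference under 1 pooled SD, and 48 moved by over 1.5 times. Merging identical copies was chosen after seeing the data and gave a genotype difference of 0.0539 in alpha evenness. Among 204 repeats for 11 named members, 199 kept their side of the threshold, 5 crossed it upwards and 0 changed direction. The number of members past 0.05 was 0 of 30 for TREX1 KO against CTRL averaged. It became 1 over 12 libraries (3.23% of genes passed) and 1 with a replicate block over 12 libraries (1.87%). Trgc4 was the member both times (adjusted p = 0.03 with the block), and it met the filter only through TREX1 KO libraries. Leaving out samples gave 0 to 2, with Trgc4 and Trbv29 called without TREX1 KO-IgG replicate 1 (1.97%) and Trbv30, which met the filter only through TREX1 KO, without replicates 2 and 3 (0.115%). Under IgG it ranged from 0 to 2, with Trbc2 and Trbv30 (0.317%), and for ICB against IgG in TREX1 KO from 0 to 1, with Trbc2 (1.59%), also without replicates 2 and 3 of TREX1 KO-IgG. A lone sample was then assumed to vary like the other groups. With no filter, 1 member, Trav13-5, passed under ICB (0.0211%) and 1, again Trav13-5, for ICB against IgG in TREX1 KO (0.0549%). Trav13-5 entered only through TREX1 KO-ICB. By summed V segments the log2 ratio of alpha-beta to gamma-delta differed by 0.3537 rather than -0.56. With entropy taken over the segments detected in a library, the genotype difference of evenness was -0.067 for alpha and turned to -0.0373 for beta. The cause was not tested. Summed levels without the 2 libraries with skin transcripts moved by less than 1 pooled SD. TPM hold no depth, which limits statements on V segments at 0.1 to 1 TPM.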

Other observations

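The summed alpha-beta constant level relative to the sum of Cd3d, Cd3e and Cd3g was 2.09, 2.62 and 3.66 in CTRL-IgG. It was 1.73 to 1.88 in CTRL-ICB and 1.44 to 1.82 in TREX1 KO libraries. All 3 CTRL-IgG libraries were thus above the other 9. This comparison was chosen after its values were seen and was not tested.

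CTRL-IgG replicate 1 and CTRL-ICB replicate 2 differed from the other 4 CTRL libraries in several members at once. Trav5-1 was 2.77 and 3.25 TPM in them and 0 in the other 4, and Trbv14 was 3.75 and 15.7 TPM against 0. Trgc2 was 7.0 and 7.72 TPM in them against 1.32 to 2.05 TPM. The likeness of their V segment shares was 0.334 for alpha and 0.450 for beta. These libraries were singled out after their values were seen, and nothing in the labels links them.

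Between the averaged TREX1 KO-ICB libraries, 9 of 18 shared V segments had TPM in a ratio within 2% of a whole number. Trbv29 gave 8.02, Trav6-2 3.99, Trbv14 2.99, Trbv4 2.01 and Trav13-5 1.98, and 4 segments a ratio of 1. The tolerance was relative and thus wider for larger ratios, and the share due to chance was not worked out.

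Genes of receptor rearrangement (Rag1, Rag2, Dntt and Ptcra) were below 1 TPM in every library.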
